A study of Rattus norvegicus with 115 samples.

Results

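The epithelial libraries of rat mammary tumours treated with PDL1+LY were set against those of tumours treated with vehicle. PDL1+LY combines an antibody that binds PD-L1, a checkpoint ligand, with LY2157299, or galunisertib, which inhibits the kinase of TGFBR1, a receptor for TGF-beta. All rats of both groups were virgin Sprague Dawley animals given the mammary carcinogen NMU (nitrosomethylurea) into the peritoneum, in 1 to 3 injections of 50 mg/kg at an age of 35 to 53 days, and treatment began once a tumour could be felt. The sources used here give neither drug doses nor schedules. Tumours were dissociated and sorted, and the RNA of each sorted fraction was sequenced in bulk.

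The columns were chosen by 3 measured values. A count column was taken as epithelial when it held under 150 CPM (counts scaled to the column's total) of the leukocyte gene Ptprc, at least 300 CPM of the epithelial adhesion gene Epcam, and more Epcam than the collagen gene Col1a1. In the whole series, of 115 labelled samples, 44 columns of 26 rats met this rule, and 20 of them came from PDL1+LY or vehicle rats. The combination gave 12 of its 21 count columns, from 7 tumours in 5 of 7 rats, and vehicle gave 8 of its 27 count columns, from 6 tumours in 5 of 9 rats. Columns of a rat were summed, and the rat was the replicate, so n is 5 in each group unless stated otherwise. Values of single rats are given in the order P23, P31, P32, P34 and P36 for the combination and P4, P7, P8, P10 and P39 for vehicle.

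The mammary epithelium has an inner layer of luminal cells, which carry keratins 8 and 18 and make milk proteins, and an outer layer of basal or myoepithelial cells, which carry keratins 5 and 14 and a smooth muscle contractile apparatus. TGF-beta restrains growth of this epithelium and can drive it towards a mesenchymal state, while in tumours it also limits the entry and action of T cells. PD-L1, encoded by Cd274, can be displayed by tumour cells and by leukocytes and damps T cells that carry PD-1.

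The values of the 3 genes of the rule describe how the columns were chosen, and no test of them is reported. Epcam ran from 1217 to 3093 CPM in the combination columns and from 1729 to 3032 CPM in the vehicle columns. Ptprc ran from 1.65 to 36.9 CPM in the combination columns and from 0.299 to 33.3 CPM in the vehicle columns. Col1a1 ran from 1.49 to 1636 CPM in the combination columns and from 1.99 to 1866 CPM in the vehicle columns. The keratin gene Krt8, which the rule did not use, ran from 2299 to 4910 CPM in the combination columns and from 2254 to 7106 CPM in the vehicle columns, so every column carried Krt8 as well as Epcam. Just inside the rule were a column of combination rat P36 with an Epcam to Col1a1 ratio of 1.14 and one of vehicle rat P7 with a ratio of 1.11. Just outside were columns of combination rat P33 (ratio 0.681) and vehicle rat P4 (ratio 0.571).

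The columns did not enter evenly from both groups. The rule left out 7 non-leukocyte columns of 4 vehicle rats and 1 of a combination rat. Vehicle rats P5 and P6 and combination rat P33 had all their non-leukocyte columns left out and did not enter. Epcam was at 757 and 909 CPM in those of P5 and at 1001 and 11.9 CPM in those of P6, each below Col1a1. Both non-leukocyte columns were epithelial in 5 tumours of 4 combination rats and in 2 tumours of 2 vehicle rats. In 2 further vehicle tumours, of rats P4 and P8, the other non-leukocyte column held more Col1a1 than Epcam (1517 against 866 CPM in P4 and 6326 against 1138 CPM in P8) and was left out by the rule. Column names give a rat and a tumour but no sorted fraction. The labels tie 1 column of P23 and 1 of P10 to the DN fraction. For every tumour with a pair of epithelial columns the labels list a DN and an Ep fraction, without saying which column is which. For tumours P36T3 and P39T1 the labels list only a CD45 (leukocyte) and a DN fraction. The columns held 3916186 to 25848279 counts each, and no column repeated another, with a highest correlation of 0.980 between log values. The columns of P10 and P23 belonged to batch 3 only, P36 and P39 had columns of batches 2 and 3, and the other 6 rats were in batch 2.

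No gene passed the test between combination and vehicle. With edgeR's quasi-likelihood test, 0 of 13027 genes had an adjusted p under 0.05, and the smallest adjusted p was 0.989. An unadjusted p under 0.05 was reached by 543 genes, or 4.17% of those tested, of which 251 (1.93%) were higher and 292 (2.24%) were lower in the combination. In 126 genes (0.967%) all 5 rats of one group lay beyond all 5 of the other, 90 (0.691%) of them higher and 36 (0.276%) lower in the combination. DESeq2 called 1 gene, Fabp3, and limma voom called 0. The median log2 fold change of all genes was -0.04, with 45.5% of genes above 0. The biological coefficient of variation between rats was 0.664. The values below are therefore descriptions of rats, and none of the differences passed the correction over all genes.

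**Figure D1:**
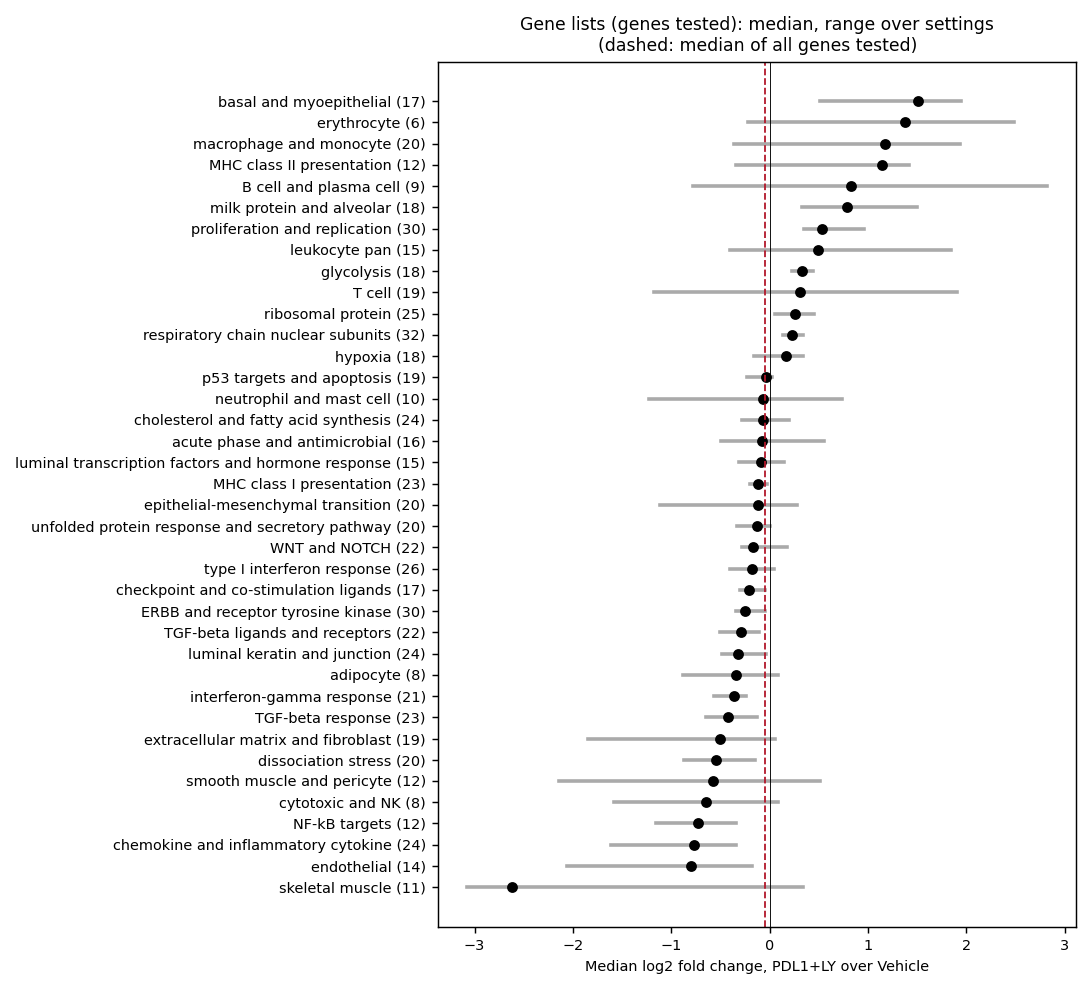
Median log2 fold change of PDL1+LY over Vehicle for each gene list (black points, number of genes tested in brackets), with grey bars from the lowest to the highest median over 25 settings and a dashed line at the median of all genes. The basal and myoepithelial list has the highest median, 1.51, with a bar that stays above 0, whereas the bar of the macrophage list crosses 0.

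Most genes of the basal and myoepithelial layer had higher values in the combination rats than in the vehicle rats, though none passed the adjusted test. Of 17 tested members of that list, 14 had a log2 fold change above 0, with a median of 1.51 against -0.04 over all genes. In 6 of the 17 the unadjusted p was under 0.05 and the value was higher in the combination, and in 4 the groups did not overlap. Over all genes the shares in that direction were 1.93% and 0.691%. Krt5, the keratin of basal cells, had 865, 303, 224, 338 and 276 CPM in the combination rats and 119.6, 78.1, 113, 95.2 and 111 CPM in the vehicle rats, in CPM scaled by TMM as for all genes below. Every combination rat lay above every vehicle rat, and P23 stood apart above the other 4 combination rats. The means were 401 ± 263 CPM in the combination and 103.4 ± 16.7 CPM in vehicle (SD, 5 rats each), with a log2 fold change of 1.96 ± 0.49 (SE) and an unadjusted p of 0.000734 (adjusted p = 0.989, edgeR).

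The contractile genes Tagln, Cnn1 and Acta2 had the same order of groups. With Krt5 they were the 4 members of the basal list without overlap. In all its other tested members the groups overlapped, the contractile gene Myh11 among them. Tagln, an actin-binding protein, had 459, 401, 447, 275 and 241 CPM in the combination rats and 231, 92.05, 26.3, 67.4 and 112 CPM in the vehicle rats. Vehicle rat P4 lay just below the lowest combination rat, and the log2 fold change was 1.79 ± 0.52 (unadjusted p = 0.00268). Cnn1, which encodes the actin-binding protein calponin, had 275, 136, 197, 177 and 204 CPM in the combination rats and 78.9, 30.4, 5.13, 38.8 and 50.7 CPM in the vehicle rats, a log2 fold change of 2.28 ± 0.83 (unadjusted p = 0.0128). Again no rats of the groups overlapped. Acta2, smooth muscle actin, the protein SMA that the study's design names for sorting, was taken up after its values were seen. It had 130.4, 124, 184, 225 and 141 CPM in the combination rats and 71.01, 28.6, 1.60, 11.9 and 40.8 CPM in the vehicle rats. Its log2 fold change was 2.39 (unadjusted p = 0.00341), also without overlap.

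Snai2, a transcription factor of basal cells that is also used as a marker of epithelial-mesenchymal transition, had 24.1, 10.98, 18.1, 14.4 and 8.96 CPM in the combination rats and 5.61, 4.46, 0.961, 1.15 and 1.93 CPM in the vehicle rats. The groups did not overlap, and its log2 fold change was 2.45 ± 0.75 (unadjusted p = 0.00355). Of 20 tested members of the transition list, 8 lay above 0 and 12 below, with a median of -0.12.

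**Figure D2:**
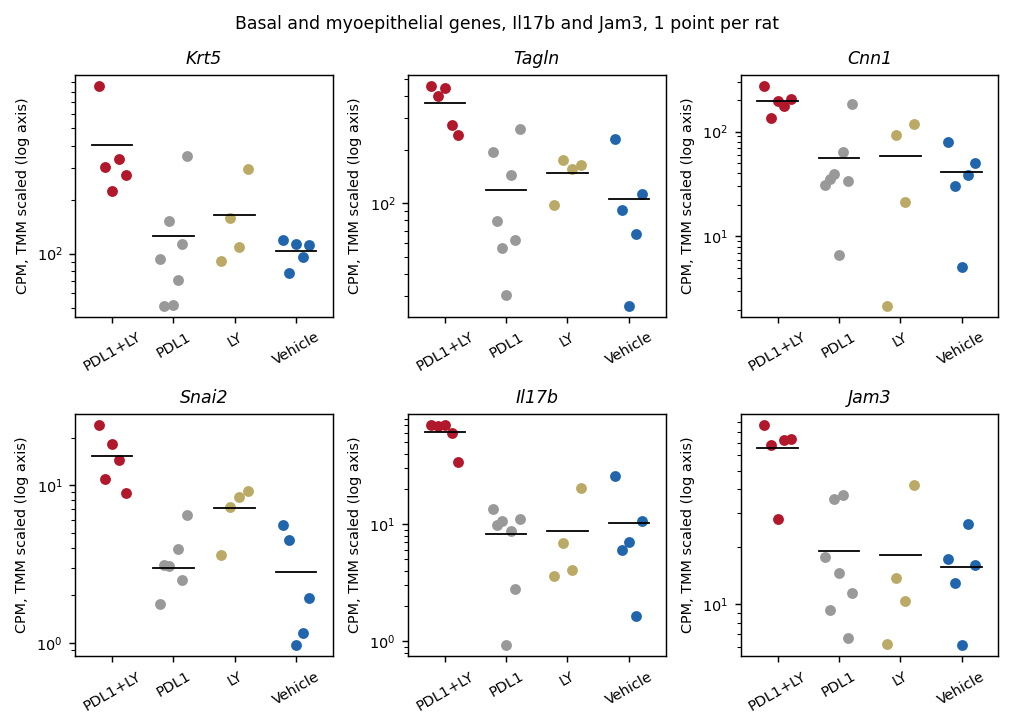
CPM (TMM scaled, log axis) of Krt5, Tagln, Cnn1, Snai2, Il17b and Jam3, with 1 point per rat and a bar at the mean, for PDL1+LY, PDL1, LY and Vehicle. In each of the 6 genes the 5 combination rats lie above the 5 vehicle rats, for Krt5 at 224 to 865 CPM in the combination and 78.1 to 119.6 CPM in vehicle.

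Muscle and vessel cells carry part of the same genes, since 3 genes are in both the basal list and the smooth muscle and pericyte list. Rgs5, a pericyte marker read after its values were seen, had 2.64, 6.87, 2.80, 3.61 and 1.73 CPM in the combination rats and 49.7, 3.55, 2.31, 2.25 and 1.21 CPM in the vehicle rats. Only vehicle rat P4 was high, and the other rats of both groups overlapped. Of the 12 tested genes of the smooth muscle and pericyte list, 7 lay below 0, with a median log2 fold change of -0.58 that was 0.02 without P4. The list's summed level was 599 to 1078 CPM in the combination and 147 to 828 CPM in vehicle. The part of muscle and vessel cells in the contractile genes was not tested.

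The basal genes also varied between the columns of a tumour. In the 7 tumours with a pair of epithelial columns, Krt5, Tagln, Cnn1, Il17b and Jam3 were each higher in the column with more Col1a1 in 6 tumours. The labels list a DN and an Ep fraction for each of these tumours but tie neither to a column. The summed basal list held 2697 to 6903 CPM in the Col1a1-richer and 747 to 1704 CPM in the Col1a1-poorer columns of the 5 combination tumours, against 1259.9 to 2129.5 CPM and 659 to 1349 CPM in the 2 vehicle tumours. These ranges hold only the columns that the rule kept, and the rule left out the Col1a1-richer column of 2 vehicle tumours. For Krt5 the Col1a1-richer columns held 257 to 713 CPM in the combination and 56.8 to 126 CPM in vehicle, and the poorer columns held 84.3 to 171 CPM in the combination and 50.7 to 103.8 CPM in vehicle.

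**Figure D3:**
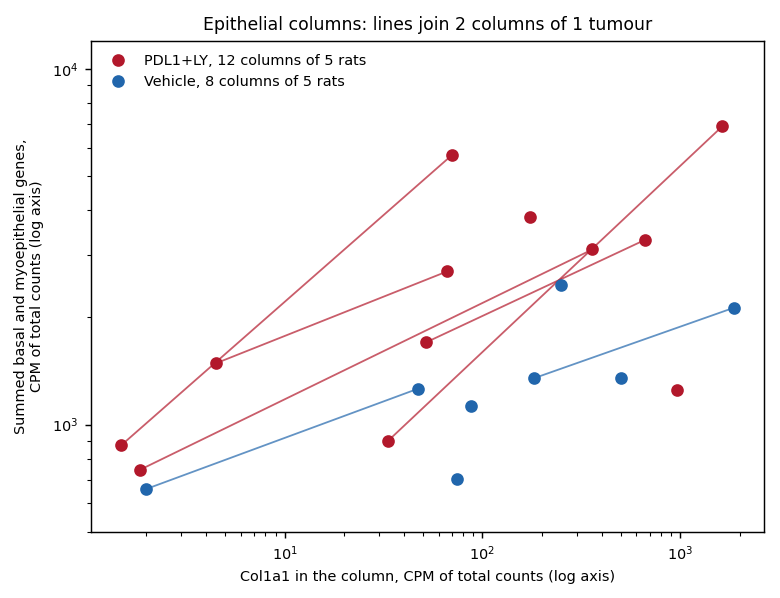
Summed CPM of 17 basal and myoepithelial genes against Col1a1 CPM (both log axes, of total counts) for each epithelial column, PDL1+LY in red and Vehicle in blue, with lines joining the columns of a tumour. The sums reach 6903 CPM in a combination column and 2474 CPM in a vehicle column, and 6 of the 7 lines belong to tumours in which Krt5 was higher at the Col1a1-richer end.

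The separation of the groups depended on which columns entered. The columns of P4 and P8 that the rule left out held 733 and 375 CPM of Krt5, 1109 and 196 CPM of Tagln, 453 and 28.4 CPM of Cnn1 and 21.5 and 15.02 CPM of Snai2. When every non-leukocyte column of the same tumours was summed, a setting chosen after seeing the data, Krt5 lay at 231 to 937 CPM in the combination rats and at 70.8 to 526 CPM in the vehicle rats. Rats P5, P6 and P33 and another tumour of P8 still did not enter. The groups then overlapped in Krt5, Tagln, Acta2, Cnn1, Snai2, Il17b and Jam3. The log2 fold change was 1.10 for Krt5, 0.84 for Tagln, 1.34 for Cnn1 and 1.43 for Snai2, and the median of the basal list was 0.51. With only the column of lowest Col1a1 of each tumour, also chosen after seeing the data, the values were 1.40 for Krt5, 1.17 for Tagln, 1.51 for Cnn1 and 2.15 for Snai2, with a list median of 0.60. In the columns of batch 2 alone they were 1.62, 1.64, 2.38 and 2.17 in that order of genes. In bulk columns, fewer cells of a type and less RNA per cell cannot be told apart, and the part of the sorted fraction in these differences was not tested.

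In the single-drug rats, 7 on anti-PD-L1 and 4 on LY2157299, the summed basal list lay at 761 to 1795 CPM on anti-PD-L1 and 1142 to 1743 CPM on LY2157299, against 2329 to 3831 CPM in the combination and 702 to 2474 CPM in vehicle. Single genes overlapped: anti-PD-L1 rat P38 had 350.4 CPM of Krt5, 261 CPM of Tagln and 185 CPM of Cnn1, and LY2157299 rat P22 had 295 CPM of Krt5, all within the range of the combination rats. The rule left out 4 non-leukocyte columns of anti-PD-L1 rats and 2 of LY2157299 rats. Both single-drug comparisons share the vehicle rats with the combination, so the values stand side by side. Krt5 had a log2 fold change over vehicle of 1.96 for the combination, 0.29 for anti-PD-L1 and 0.66 for LY2157299. For Tagln these were 1.79, 0.16 and 0.48. The direct contrasts for Krt5 were 1.67 against anti-PD-L1 (unadjusted p = 0.00107) and 1.29 against LY2157299 (unadjusted p = 0.0218). In those contrasts, too, edgeR called 0 genes, with smallest adjusted p of 0.339 against anti-PD-L1 and 0.977 against LY2157299. An unadjusted p under 0.05 was reached there by 405 genes (3.11%) and 631 genes (4.84%). Over vehicle the single drugs also had 0 called genes, with 362 genes (2.78%) at an unadjusted p under 0.05 for anti-PD-L1 and 902 (6.92%) for LY2157299.

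Among the 20 genes with the smallest p, 15 were higher and 5 lower in the combination. The groups did not overlap in 11 of the 15 and in 3 of the 5, against 0.691% higher and 0.276% lower over all genes. A choice by smallest p on the same rats favours genes without overlap, so these counts are no result of their own. Il17b, a secreted cytokine of the IL-17 family, had 70.7, 68.9, 70.5, 60.6 and 34.4 CPM in the combination rats and 25.96, 6.02, 7.11, 1.65 and 10.6 CPM in the vehicle rats. No vehicle rat reached the lowest combination rat, P36, and the log2 fold change was 2.58 ± 0.67 (unadjusted p = 0.000941). It was 2.89 against anti-PD-L1 and 2.80 against LY2157299. Jam3, a junctional adhesion molecule, had 86.7, 67.8, 27.9, 71.9 and 72.97 CPM in the combination rats and 17.3, 12.9, 6.09, 26.1 and 16.1 CPM in the vehicle rats. Combination rat P32 lay just above vehicle rat P10, and the log2 fold change was 2.06 ± 0.54. With all non-leukocyte columns of the same tumours the log2 fold changes were 1.13 for Il17b and 0.64 for Jam3.

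Further genes of this group were higher without overlap. Id4, a dominant-negative helix-loop-helix factor of basal mammary cells in mice, had 350.1, 135, 134, 66.1 and 65.3 CPM in the combination rats and 58.5, 59.5, 24.4, 24.9 and 48.8 CPM in the vehicle rats. The log2 fold change was 1.80 ± 0.45, and 1.21 without P23, the highest rat. Calml3, a calmodulin-like protein of epithelia, had 25.6, 15.3, 13.3, 36.5 and 12.99 CPM in the combination rats and 3.93, 8.01, 2.18, 7.91 and 5.65 CPM in the vehicle rats, a log2 fold change of 1.90 ± 0.45. Apobec3, a cytidine deaminase that restricts retroviruses, had 105.4, 89.7, 106.8, 133 and 107.3 CPM in the combination rats and 63.4, 42.2, 53.5, 49.1 and 81.6 CPM in the vehicle rats. Both groups were narrow, and the log2 fold change was 0.90 ± 0.23, with 0.78 to 1.08 over all settings. The mitochondrial arginase gene Arg2 (log2 fold change 1.41), Bex3 (0.65), the p53 target Phlda3 (1.22) and the lipolysis inhibitor gene G0s2 (2.53, or 1.67 without P34) were also higher in every combination rat than in any vehicle rat. On anti-PD-L1 alone the log2 fold changes over vehicle were 0.59 for Arg2, 0.54 for Bex3, -0.14 for Phlda3 and 0.82 for G0s2. On LY2157299 alone they were 0.42, 0.40, 0.01 and 1.02 in that order. Msrb1, a methionine sulfoxide reductase gene, had a log2 fold change of 0.83, or 0.52 without P34, with overlapping groups. With all non-leukocyte columns of the same tumours, Id4 had a log2 fold change of 0.89 and Phlda3 one of 0.33.

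Tgfb1i1, which encodes the focal adhesion protein Hic-5 and is named for its induction by TGF-beta, had 66.1, 27.8, 40.7, 45.05 and 53.5 CPM in the combination rats and 31.6, 15.2, 8.39, 18.3 and 14.03 CPM in the vehicle rats. Only P31 of the combination and P4 of vehicle overlapped, and the log2 fold change was 1.42 ± 0.35 (unadjusted p = 0.000555). With all non-leukocyte columns of the same tumours it was 0.28. Among the genes that were lower were Vcpip1, a deubiquitinase, with a log2 fold change of -0.75, Nhs (-1.02), Zmynd15 (-1.31, or -0.82 without P10) and the ephrin gene Efna1 (-1.02). Vcpip1, Nhs and Zmynd15 did not overlap between the groups. Vcpip1 had 41.1, 52.6, 35.2, 42.1 and 52.7 CPM in the combination rats and 62.7, 95.6, 54.8, 96.6 and 67.6 CPM in the vehicle rats. On anti-PD-L1 alone the log2 fold changes over vehicle were -0.42 for Vcpip1, -0.85 for Nhs, -0.41 for Zmynd15 and -0.81 for Efna1. On LY2157299 alone they were -0.05, -0.47, -0.21 and -0.36 in that order.

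Fabp3, a fatty acid-binding protein of muscle and of the lactating mammary gland, had the smallest p of all genes. It had 84.3, 47.01, 46.2, 941 and 13.6 CPM in the combination rats and 5.75, 11.3, 3.27, 16.8 and 10.5 CPM in the vehicle rats. P34 stood far above the rest, and P36 lay below vehicle rat P10, so the groups overlapped. The log2 fold change was 4.56 ± 0.95 (unadjusted p = 0.000108, adjusted p = 0.989, edgeR) and 2.31 without P34. DESeq2 gave a log2 fold change of 4.56 with an adjusted p of 4.32e-05.

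The highest milk protein levels came from 1 combination rat. Of 18 tested members of the milk protein and alveolar list, 17 lay above 0, with a median log2 fold change of 0.79, or 0.33 without P34. Of these members 4 had an unadjusted p under 0.05, all higher in the combination, against 1.93% of all genes. The summed list held 16831 to 122690.0 CPM in the combination and 1568 to 29593 CPM in vehicle. Csn2, the beta-casein gene, had 3429, 15.1, 11.6, 43838 and 16.6 CPM in the combination rats and 0.982, 18.7, 0.513, 1302 and 55.6 CPM in the vehicle rats. P34 and P23 were high in the combination and P10 in vehicle, and the other 7 rats were under 100 CPM. The log2 fold change was 5.10 ± 2.47 (unadjusted p = 0.0526) and 1.64 without P34.

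The whey protein gene Wap had 9.75, 23.8, 15.9, 1765 and 9.80 CPM in the combination rats and 0.842, 6.99, 1.79, 26.2 and 18.2 CPM in the vehicle rats. Without P34 the combination rats lay within the vehicle range, and the log2 fold change of 5.06 was then 0.44. Csn1s2a, another casein gene, had 2346 CPM in P34 and 0.115 to 1.41 CPM in the other 4 combination rats, against 0.302 to 19.3 CPM in vehicle. Its log2 fold change was 6.67 with P34 and -2.79 without it. Elf5, the transcription factor of alveolar cells, had 50.01, 50.5, 61.8, 186 and 39.8 CPM in the combination rats and 5.33, 40.9, 6.34, 65.97 and 49.9 CPM in the vehicle rats, with P4 and P8 low in vehicle. Thrsp, a regulator of fatty acid synthesis in lactation, had 221, 701, 331, 2423 and 477 CPM in the combination rats and 4.77, 272, 56.8, 209 and 233 CPM in the vehicle rats. This gave a log2 fold change of 2.42 ± 0.79, and 1.47 without P34.

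**Figure D4:**
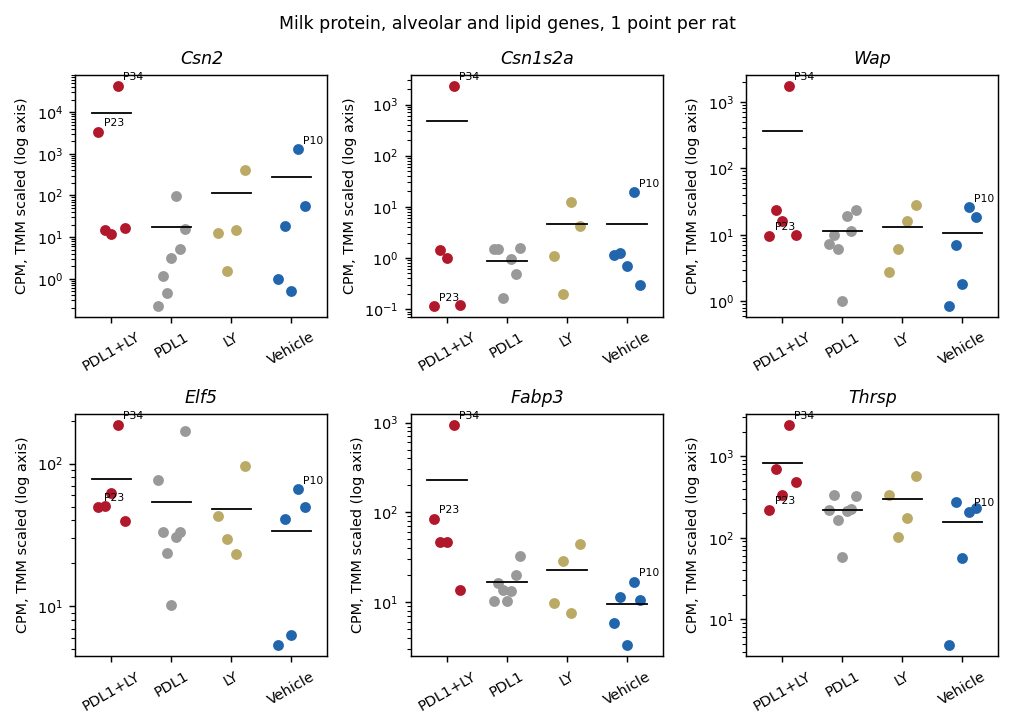
CPM (TMM scaled, log axis) of Csn2, Csn1s2a, Wap, Elf5, Fabp3 and Thrsp, with 1 point per rat and a bar at the mean, for PDL1+LY, PDL1, LY and Vehicle, and with rats P34, P23 and P10 named. P34 is the highest combination rat in all 6 genes, with 43838 CPM of Csn2.

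Most luminal structural genes had slightly lower values in the combination, again without a call. Of 24 tested members of the luminal keratin and junction list, 22 lay below 0, with a median log2 fold change of -0.32. Of these members 5 had an unadjusted p under 0.05 in that direction, against 2.24% of all genes. The median of the list was -0.17 without P10 and -0.04 in the columns of batch 2. Krt18 had 1397, 1135, 1559.8, 1771 and 1675 CPM in the combination rats and 1538, 2441, 1628, 4108 and 2011 CPM in the vehicle rats. The groups overlapped, with P10 highest, and the log2 fold change was -0.64 ± 0.30, against -0.34 without P10. Krt8 averaged 3333 ± 1149 CPM in the combination and 4559 ± 2872 CPM in vehicle (SD, 5 rats each), and its log2 fold change of -0.45 was 0.01 in the columns of batch 2. Spint1, an inhibitor of membrane serine proteases, had a log2 fold change of -0.63, or -0.33 in batch 2, and the epithelial transcription factor gene Ovol1 -2.05, or -1.05 without P10.

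Of the hormone receptor genes, Esr1 followed a single rat. Esr1, the oestrogen receptor gene, had 4.70, 16.03, 25.4, 1.07 and 23.1 CPM in the combination rats and 20.9, 13.98, 185, 5.41 and 14.9 CPM in the vehicle rats. P8 alone was high in vehicle, and the log2 fold change of -1.76 was 0.04 without it. Pgr, the progesterone receptor gene, averaged 99.9 ± 78.1 CPM in the combination and 54.1 ± 47.5 CPM in vehicle (SD, 5 rats each), with overlapping groups. Its log2 fold change was 0.89 ± 0.76, and 0.47 to 1.58 with each rat left out in turn. Of the 15 tested luminal transcription factor and hormone response genes, 7 lay above 0 and 8 below.

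The drug targets themselves did not separate the groups. Cd274, the gene of PD-L1, had 7.11, 19.1, 18.6, 2.63 and 13.8 CPM in the combination rats and 15.997, 8.61, 14.2, 9.22 and 8.74 CPM in the vehicle rats. Its log2 fold change was 0.12 ± 0.68, and its sign changed between settings. Tgfbr1, the receptor that LY2157299 inhibits, had 19.96, 21.4, 13.7, 9.93 and 20.2 CPM in the combination rats and 8.56, 17.8, 26.4, 49.3 and 25.6 CPM in the vehicle rats, a log2 fold change of -0.58 ± 0.41, or -0.20 without P10, the highest rat. Tgfbr2, the partner receptor, averaged 33.2 ± 11.6 CPM in the combination and 37.1 ± 20.6 CPM in vehicle (SD, 5 rats each). An inhibitor of the kinase need not alter its transcript, so these levels do not check whether the drug reached the cells.

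Of the TGF-beta ligand and receptor genes, 17 of 22 lay below 0, with a median log2 fold change of -0.29 that was -0.11 without P8. Tgfb1, the ligand gene, had 5.51, 7.71, 4.83, 1.89 and 5.62 CPM in the combination rats and 11.4, 11.3, 28.004, 6.66 and 10.3 CPM in the vehicle rats. Only P31 of the combination exceeded a vehicle rat, P10, and the log2 fold change was -1.40 ± 0.60 (unadjusted p = 0.0288), or -0.95 without P8. Bmpr2, a receptor of the related bone morphogenetic proteins, had a log2 fold change of -0.70 ± 0.26 (unadjusted p = 0.0136). The log2 fold change of Tgfb1 was -0.78 on anti-PD-L1 and -0.43 on LY2157299, over the same vehicle rats.

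Known response genes of TGF-beta leaned lower, with 18 of 23 below 0 and a median log2 fold change of -0.43 that was -0.13 without P10. On anti-PD-L1 alone the same list had a median of -0.43 over vehicle, and on LY2157299 alone 0.00. Tgif1, a repressor of SMAD transcription, had 163, 213, 207, 198 and 173 CPM in the combination rats and 154, 297, 273, 772 and 252 CPM in the vehicle rats. Vehicle rat P10 was far above the others, and the log2 fold change of -0.87 was -0.36 without it. Ccn2, the connective tissue growth factor gene, went the other way, with 248, 198, 269, 652 and 159.8 CPM in the combination rats and 90.1, 162, 52.4, 232 and 129.9 CPM in the vehicle rats. P34 was highest, and the log2 fold change was 1.19 ± 0.49 (unadjusted p = 0.0246), or 0.70 without P34.

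Most cytokine, NF-kB and early stress genes had lower values in the combination than in vehicle. Among the rats of these groups the highest values were those of vehicle rats P10 and P7. Of 24 tested chemokine and inflammatory cytokine genes, 16 lay below 0, with a median log2 fold change of -0.77. Of these members 5 had an unadjusted p under 0.05, all lower, against 2.24% of all genes. The median of the list was -0.34 without P10 and -1.61 without P34. On the single drugs its median over the same vehicle rats was -0.61 for anti-PD-L1 and -0.25 for LY2157299. Csf3, the granulocyte colony-stimulating factor gene, had 15.1, 5.19, 20.2, 33.2 and 14.5 CPM in the combination rats and 3.79, 275, 3.72, 2234 and 16.7 CPM in the vehicle rats. Vehicle rats P4 and P8 lay below every combination rat, and P39 lay among them. The log2 fold change of -4.85 ± 1.55 was -2.11 without P10 and -2.32 in batch 2. In the single-drug rats Csf3 lay at 7.66 to 188 CPM on anti-PD-L1 and 12.9 to 622 CPM on LY2157299. Cxcl2, a neutrophil chemokine, had 20.3, 26.3, 21.1, 187 and 39.9 CPM in the combination rats and 11.1, 381, 3.97, 2571 and 61.7 CPM in the vehicle rats, with -3.37 for all rats and -0.98 without P10.

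Of the 12 tested NF-kB target genes, 11 lay below 0, with a median of -0.73 that was -0.34 without P10. Icam1, a leukocyte adhesion molecule, had 59.7, 116, 103.4, 69.99 and 99.7 CPM in the combination rats and 62.4, 503, 92.02, 1146 and 176 CPM in the vehicle rats. Birc3, an inhibitor of apoptosis, had 55.1, 39.2, 32.7, 27.2 and 28.4 CPM in the combination rats and 23.9, 250.4, 16.9, 739 and 47.3 CPM in the vehicle rats. In both genes P7 and P10 were the high rats, and the log2 fold changes were -2.14 ± 0.71 and -2.56 ± 0.93, against -1.23 for each without P10. Immediate early genes that tissue dissociation also induces went with them: 18 of 20 lay below 0, with a median log2 fold change of -0.55 that was -0.15 without P10. Atf3, one of them, had 518, 519.7, 1695, 1723 and 1164 CPM in the combination rats and 864, 4071, 736, 6843 and 1968 CPM in the vehicle rats. The summed list held 24846 to 57686 CPM in the combination and 24186 to 91953 CPM in vehicle, with 91953 CPM in P7 and 90230.0 CPM in P10. On anti-PD-L1 the summed list held 27880 to 87646 CPM, and on LY2157299 48781 to 99527 CPM. Its part in the cytokine values was not tested.

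**Figure D5:**
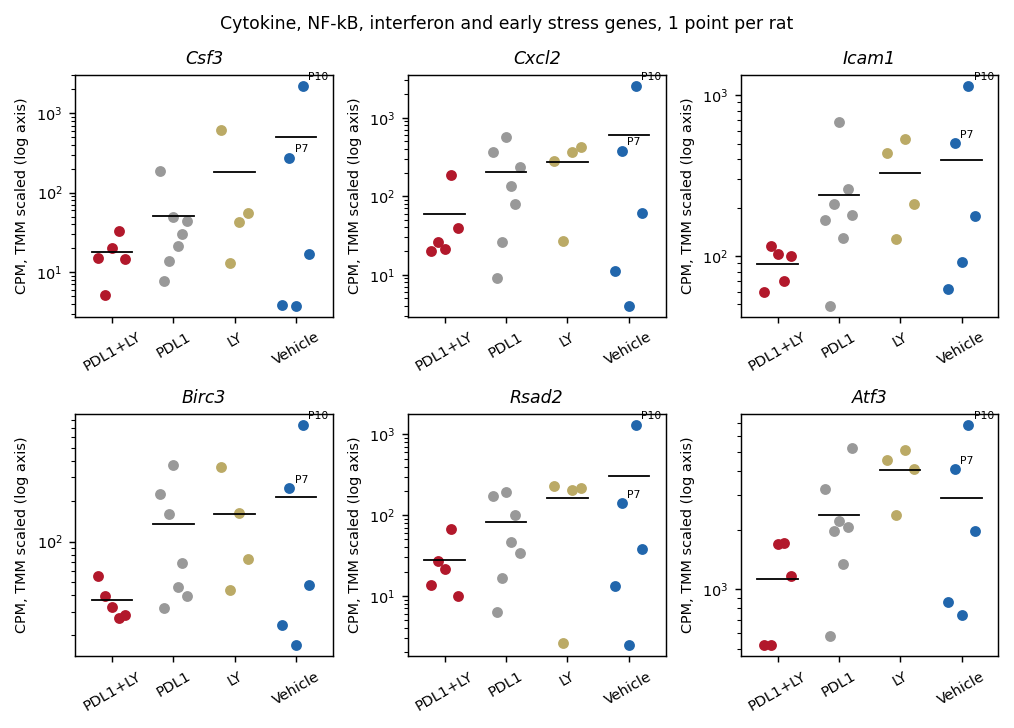
CPM (TMM scaled, log axis) of Csf3, Cxcl2, Icam1, Birc3, Rsad2 and Atf3, with 1 point per rat and a bar at the mean, for PDL1+LY, PDL1, LY and Vehicle, and with rats P10 and P7 named. P10 is the highest vehicle rat in all 6 genes, with 2234 CPM of Csf3, and P7 is the next highest vehicle rat in each.

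The interferon genes Rsad2 and Cxcl10 had the same high rats. Rsad2, an antiviral gene induced by type I interferon, had 13.8, 26.7, 21.9, 68.4 and 9.92 CPM in the combination rats and 13.2, 141, 2.44, 1315 and 37.7 CPM in the vehicle rats. The log2 fold changes were -3.43 and -0.80 without P10. Cxcl10, a T cell chemokine induced by interferon, had 3.21, 14.7, 3.43, 13.1 and 12.9 CPM in the combination rats and 7.72, 286, 0.384, 358 and 25.5 CPM in the vehicle rats. The median was -0.18 for 26 type I response genes, with -0.16 without P10 and -0.41 without P8. With batch as a covariate, in rats with columns of 1 batch, the type I median was 0.04. For 21 interferon-gamma response genes, of which 14 lay below 0, the median was -0.36. It was -0.36 without P10, -0.27 without P7, -0.56 without P8 and -0.57 with all non-leukocyte columns of the same tumours. Pvr, a ligand of the receptors TIGIT and CD226 on T cells and natural killer cells, had 22.1, 35.9, 51.2, 87.5 and 58.5 CPM in the combination rats and 36.9, 225, 30.1, 572 and 117 CPM in the vehicle rats. Its log2 fold change was -1.94 ± 0.72, or -1.01 without P10, and that of the related gene Nectin2 was -0.75, or -0.29 without P10.

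Proliferation genes leaned higher in the combination, with 27 of 30 above 0 and a median log2 fold change of 0.54, or 0.35 without P34 and 0.96 without P4, but no member had an unadjusted p under 0.05. Mki67, which encodes the Ki-67 antigen of cycling cells, had 23.97, 17.1, 20.9, 76.5 and 35.3 CPM in the combination rats and 53.7, 15.7, 10.96, 10.2 and 27.2 CPM in the vehicle rats. P34 and P4 were the high rats of their groups, and the log2 fold change of 0.56 ± 0.83 was 0.03 without P34 and 1.11 without P4. Nuclear genes of the respiratory chain (31 of 32 above 0, median 0.23) and ribosomal protein genes (25 of 25 above 0, median 0.26, or 0.06 without P23) leaned the same way by small amounts. Ldhb, a lactate dehydrogenase, had 113, 142, 74.9, 141 and 82.3 CPM in the combination rats and 31.99, 66.5, 82.6, 55.1 and 73.8 CPM in the vehicle rats, a log2 fold change of 0.84 ± 0.29 (unadjusted p = 0.00859).

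Single genes of signalling lists also reached a low unadjusted p. Lef1, a WNT effector, had 66.3, 13.1, 24.2, 1.89 and 10.6 CPM in the combination rats and 6.46, 5.18, 4.10, 4.31 and 4.08 CPM in the vehicle rats. P34 lay below every vehicle rat and the other 4 combination rats above them, and the log2 fold change was 2.26 ± 0.73, or 1.37 without P23. The receptor genes Notch1 (log2 fold change -0.78) and Erbb2 (-0.66) were lower, and Dusp6, a feedback inhibitor of ERK, was higher (0.70), each with overlapping groups. With all non-leukocyte columns of the same tumours, Lef1 had a log2 fold change of 0.95, Erbb2 -0.39 and Dusp6 0.25. Of the 22 tested WNT and NOTCH genes 10 lay above 0, and of the 30 ERBB and receptor tyrosine kinase genes 10 did.

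Leukocyte transcripts remained in the columns and rested on few rats. All 20 tested macrophage genes lay above 0, with a median log2 fold change of 1.18 that was -0.27 without P23. C1qa, a complement gene of macrophages, had 401, 6.56, 27.2, 23.1 and 2.81 CPM in the combination rats and 11.1, 26.2, 11.02, 16.6 and 5.14 CPM in the vehicle rats. P23 alone was high, and its Ptprc, 34.1 CPM, was also the highest of the 10 rats. The MHC class II list (11 of 12 above 0, median 1.14) had a median of -0.30 without P23. Over the same vehicle rats its median was 2.31 on anti-PD-L1 and 1.59 on LY2157299. Its member Ifi30, a thiol reductase of antigen processing, had 236, 101.7, 96.4, 164 and 122 CPM in the combination rats and 87.1, 73.6, 94.01, 91.6 and 95.6 CPM in the vehicle rats, without overlap, a log2 fold change of 0.70 and 0.45 without P23. The log2 fold change of Ifi30 over vehicle was 0.98 on anti-PD-L1 and 0.77 on LY2157299.

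T cell genes summed to 15.9 to 225 CPM in the combination and 9.67 to 129 CPM in vehicle, and cytotoxic and natural killer genes to 1.16 to 23.98 CPM in the combination and 1.55 to 33.9 CPM in vehicle, with P23 and P7 highest in their groups in both lists. Cd52, a leukocyte surface gene that can also be made by epithelia, was at 44.4 CPM in vehicle rat P8 and at 0.840 to 3.78 CPM in the other 9 rats. Skeletal muscle genes lay below 0 in 11 of 11, with a median log2 fold change of -2.62 that was 0.33 without P7. Ckm, the muscle creatine kinase gene, was at 90.8 CPM in P7 and at 0.0907 to 4.93 CPM in the other 9 rats.

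The deposited tumour measurements of the same rats did not differ between the groups beyond the spread of the rats, with tumours averaged per rat and exact two-sided permutation tests. The CD8 fraction averaged 0.0599 ± 0.0286 in 2 combination rats with a value and 0.0839 ± 0.111 in 5 vehicle rats (SD, exact permutation p = 0.762), where the design cannot give a p below 0.0952. Vehicle rat P7 had 0.277, the highest of the 7 rats. Tumour size averaged 26.4 ± 12.4 in the combination and 23.5 ± 16.5 in vehicle (SD, exact permutation p = 0.778). The growth rate averaged 3.49 ± 1.97 in the combination and 4.91 ± 4.46 in vehicle (SD, exact permutation p = 0.579). The time from NMU to sacrifice averaged 138 ± 63.996 in the combination and 111 ± 37.8 in vehicle (SD, exact permutation p = 0.476). With adjustment over these 4 measures each p was 0.778, the smallest p that 5 rats against 5 allow is 0.00794, and the authors' units are not stated in the sources used here. Among tumours with an epithelial column, the authors classed 4 of 7 as stable in the combination, in 2 rats, and 2 of 6 in vehicle, in 2 rats.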

How the data were processed

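RNA of sorted tumour cell fractions was sequenced from SMARTer libraries for inputs below 10 ng, as the labels' protocols say. The deposited gene counts are raw and listed by gene symbol for 17455 symbols. The submitters' processing notes name FastQC, STAR and the rat build rn6, while the sources used here leave the counting tool, its annotation and its use of strand unnamed. The CD8 fraction and the other tumour measures are the authors' deposited values, a fraction of an unnamed denominator and numbers in unnamed units. In the count table, 1 column of per-sample values was not used.

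The members and gene lists were chosen with earlier results of these data known. Columns were summed per rat, genes were filtered with filterByExpr and scaled by TMM, and 21 rats of 4 treatment groups entered edgeR's quasi-likelihood test with robust dispersion (edgeR 4.0.16, limma 3.58.1, R 4.3.3), leaving 17 residual degrees of freedom. P-values were adjusted over all 13027 genes by Benjamini-Hochberg, with a threshold of 0.05. SE was taken as the absolute log2 fold change divided by the root of the F statistic. The test was tried on simulated counts first. DESeq2 1.42.0, limma voom, other scalings, filters and column rules, batch and leaving out each rat were alternatives. Tumour measures were compared by exact permutation (SciPy 1.17.1, Python 3.11.15). With fewer than 10 called genes, the text names the 20 genes of smallest p, up to 2 members of smallest p per list and a fixed set of genes that includes the drug targets, the genes of the column rule and the hormone receptors, and a few results of this rule are not reported here.

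Rat totals were 5308021 to 47491491 counts, so that 3 counts, the floor of detection, were 0.0632 to 0.565 CPM. Reads carry no molecular identifiers, so this floor covers counting error only. The labels name the rats, and p-values judge differences between groups against the spread between rats.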

Additional observations from a re-analysis of the deposited data

Results flagged for a closer look

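Of 182 groups of rats, 43 had a highest or lowest rat far from the next. There the gap exceeded Dixon's critical value at the 95% level, 0.710 for groups of 5. The CD8 fraction of the combination, with 2 rats, could not be marked. Chance marks about 1 in 20 groups of independent, normally distributed values. The CPM were not log-transformed and the groups share rats, so the count does not measure an excess over chance. Combination rat P34 was marked 13 times, P23 10 times and P36 2 times, and vehicle rat P10 8 times, P7 5 times, P8 4 times and P4 1 time.

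Rat P34 stood above the other combination rats in milk and lipid genes. It had 43838 CPM of Csn2, 2346 CPM of Csn1s2a, 1765 CPM of Wap, 186 CPM of Elf5, 941 CPM of Fabp3, 993 CPM of G0s2 and 2423 CPM of Thrsp, and its summed milk list was 122690.0 CPM. It was also highest in Msrb1 (272 CPM), Ccn2 (652 CPM), Rsad2 (68.4 CPM), Cxcl2 (187 CPM) and Pigr (80.5 CPM), the polymeric immunoglobulin receptor gene.

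Rat P23 stood above the other combination rats in Krt5 (865 CPM) and Id4 (350.1 CPM). It was also highest in Ptprc (34.1 CPM) and the complement genes C1qa (401 CPM) and C1qc (617 CPM). Its summed pan-leukocyte, T cell and cytotoxic lists held 1282, 225 and 23.98 CPM. Ckm was at 4.93 CPM there, and the summed skeletal muscle list at 183 CPM. Rat P36 was lowest in Il17b (34.4 CPM) and highest in the matrix gene Dcn (418 CPM).

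Vehicle rat P10 was highest in the inflammatory genes Csf3 (2234 CPM), Cxcl2 (2571 CPM), Rsad2 (1315 CPM) and Ifih1 (403 CPM), in Tgif1 (772 CPM) and Zmynd15 (118 CPM), and in the caseins Csn2 (1302 CPM) and Csn1s2a (19.3 CPM). Vehicle rat P7 was highest in Ptprc (25.1 CPM), Ckm (90.8 CPM), the summed cytotoxic list (33.9 CPM), the summed skeletal muscle list (637 CPM) and the CD8 fraction of the tumour (0.277). Vehicle rat P8 was highest in Esr1 (185 CPM), Pgr (136 CPM), Tgfb1 (28.004 CPM) and Cd52 (44.4 CPM), and P4 in the summed smooth muscle and pericyte list (828 CPM).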

How the results depend on the processing

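With edgeR or limma voom, 0 genes passed the adjusted test under every setting run, leaving out each rat included, with 364 to 1009 genes at an unadjusted p under 0.05. DESeq2 called 1 gene, Fabp3, whose log2 fold change was 4.56 there. Of 1726 log2 fold changes of the 72 genes that the naming rule gives under 24 settings, 18 changed sign. Krt8 was 0.012 and Ptprc -0.95 in batch 2 columns. Cd274 was -0.069 with batch as a covariate and -0.38 with 1 column per rat. Tgfbr2 was 0.038 in batch 2 columns and 0.019 with 1 column per rat. With limma voom, Csn1s2a was -0.15, C1qa -0.039 and C1qc -0.20. The causes were not tested. Leaving out each rat gave -0.70 to 1.84 for Ptprc, -1.14 to 0.56 for Col1a1, -0.10 to 0.36 for Cd274, -0.43 to 0.12 for Tgfbr2, -2.08 to 0.037 for Esr1, -2.79 to 9.19 for Csn1s2a, -0.038 to 3.31 for C1qc and -5.00 to 2.20 for Ckm.

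Leaving out each rat, the difference of combination minus vehicle for the CD8 fraction was -0.0429 to 0.0243, with the highest value without P7. It was -1.51 to 8.74 for tumour size, below 0 without P7 and without P23, and -2.65 to 0.274 for growth rate, above 0 without P4. The time from NMU to sacrifice differed by 2.40 to 42.2, lowest without P23. Without P31 or P36 the CD8 fraction was given no value, since 1 combination rat remained. No paired analysis was possible because each rat received 1 treatment. With 5 rats a group and a coefficient of variation of 0.664 between rats, a p that misses the threshold does not show that levels were alike.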

Other observations

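Gene groups of other cells and pathways also had 0 called members. Matrix and fibroblast genes lay below 0 in 15 of 19 tested, with a median log2 fold change of -0.51, or -1.85 with all non-leukocyte columns of the same tumours, and -0.14 without P7. Endothelial genes lay below 0 in 12 of 14, with a median of -0.80, or -0.42 without P7, -0.47 without P4, -0.18 with limma voom and -2.06 with all non-leukocyte columns. Red cell genes had a median of 1.38 over 6 genes, which was 0.01 without P34. B cell and plasma cell genes had a median of 0.83 over 9 genes, or 0.45 without P23, 1.67 without P7 and -0.78 with a filter at 5 CPM. Adipocyte genes had one of -0.34 over 8 genes, or 0.08 without P7 and -0.88 in batch 2. The neutrophil and mast cell list had -0.06 over 10 genes, but -1.05 without P23, 0.73 without P4 and -1.23 in batch 2.

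Among pathways, 14 of 18 glycolysis genes lay above 0, with a median log2 fold change of 0.33 that ran from 0.23 to 0.45 over the settings. Hypoxia genes had a median of 0.16 over 18 genes, which was -0.16 without P34. MHC class I presentation genes had a median of -0.12 over 23 genes (-0.20 to -0.03 over the settings), and checkpoint and co-stimulation ligands one of -0.21 over 17 genes (-0.30 to -0.05). The medians of cholesterol and fatty acid synthesis (-0.07 over 24 genes), of p53 targets (-0.04 over 19 genes) and of the acute phase list (-0.08 over 16 genes) changed sign between settings. The acute phase median was 0.55 without P7 and -0.49 without P34. The unfolded protein response list had a median of -0.13 over 20 genes, or -0.02 without P23 and -0.28 without P4.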
